A study of Mus musculus with 8 samples.

Results

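The transcripts described here encode F-box proteins of the Fbxl, Fbxo and Fbxw families in mouse oocytes. They were picked by symbol, as every gene named *Fbxl*, *Fbxo* or *Fbxw* with a number that was listed in all 8 libraries. *Fbxo5* and *Fbxo43* were left out. The rule gave 67 of 15962 listed genes, of which 17 were *Fbxl*, 27 *Fbxo* and 23 *Fbxw* genes. Of the *Fbxw* genes, 15 with numbers from 13 to 28 lie side by side on chromosome 9, and these are called the Fbxw cluster. The other 52 genes, 8 further *Fbxw* genes among them, are scattered over the genome. Genes reaching 1 TPM in no fewer than 2 libraries were tested, which left 63, all 15 of the cluster and 48 of the other 52.

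F-box proteins are the substrate receptors of SCF ubiquitin ligases. The F-box motif holds the adaptor SKP1, which sits on the cullin CUL1 and its RING partner RBX1, and the rest of the protein picks the target. Fbxw proteins carry WD40 repeats for this purpose, Fbxl proteins carry leucine-rich repeats, and Fbxo proteins carry other domains. Ubiquitin-dependent destruction of cell cycle proteins drives meiotic maturation, in which an oocyte held at the germinal vesicle (GV) stage proceeds to arrest at metaphase II (MII). Over the same period much of the stored maternal mRNA is removed. BTG4 takes part in this clearance as an adaptor that brings the CCR4-NOT deadenylase to mRNA, where the enzyme shortens poly(A) tails.

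The study asked whether changing phosphorylation sites of BTG4 affects this mRNA clearance. The 8 libraries fall into 4 groups of 2, each library made from 15 oocytes without zona pellucida, and further samples were not analysed here. The uninjected controls were GV oocytes and oocytes matured in culture to MII. Fully grown oocytes were microinjected with Myc-tagged cRNA for wild-type BTG4 (Btg4wt) or for a mutant in which a threonine and the 2 serines after it were replaced by alanine (Btg4tm), and were collected at MII. The injected oocytes kept their own *Btg4* gene. Oocytes came from superovulated, 6-week-old female ICR mice. Nothing in the labels says that libraries of a group came from separate animals, so the p-values measure only the spread between these libraries. With 2 libraries against 2, an exact permutation test cannot reach 0.05, and the adjusted p-values given here come from a limma fit over 13968 genes. A gene was called when its adjusted p was under 0.05 and its log2 fold change passed 1 in either direction, and "rose" and "fell" are used only of called genes.

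The 15 cluster genes occupy 651 kb of chromosome 9 in GRCm38, chr9:109139447-109790670. In the GENCODE M21 annotation all 15 lie on the minus strand, and between them stand 9 other annotated genes. Along the chromosome the order is *Fbxw21*, *Fbxw13*, *Fbxw20*, *Fbxw14*, *Fbxw28*, *Fbxw22*, *Fbxw16*, *Fbxw19*, *Fbxw23*, *Fbxw15*, *Fbxw24*, *Fbxw25*, *Fbxw18*, *Fbxw26* and *Fbxw27*. Their transcripts are short, with a median length of 1497 bases against 3734.5 for the other F-box genes. *Fbxw23* is annotated as a transcribed pseudogene, and the remaining 14 have coding sequences of 1299 to 1410 bases. Over the 91 pairs of coding sequences, identity had a median of 84.2% and ran from 78.9% to 97.4%, with *Fbxw14* and *Fbxw28* the most alike. The annotated 3′ UTR had a median of 60 bases in the 14 coding genes of the cluster and of 1612 bases in the other 52 genes. The letters TTTTAT or TTTTAAT, the core of a cytoplasmic polyadenylation element, were found in the 3′ UTR of 0 of the 14 and of 33 of the 52, which differ greatly in UTR length.

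The close kinship of these genes shows in the last part of their mRNAs. Shown here, read from GENCODE M21 transcripts on GRCm38, are 30-base stretches of the 3′ UTR around the first AATAAA after the stop codon, the poly(A) signal letters, which are in capitals. Such a stretch was found in 13 of the 15 genes, and in *Fbxw13* it is cut by the transcript end. It was the same in 6 genes.
Fbxw16, Fbxw18, Fbxw22, Fbxw24, Fbxw25 and Fbxw27: ttcctcaatgatAATAAAggtctatttgca
Fbxw21: ttcctcaatgatAATAAAagtctatttgca
Fbxw20: ttcctcaatgatAATAAAggtctttttgca
Fbxw13: ttcctcgatgatAATAAAagtctatttgc
Fbxw15: ttcctcaaagatAATAAAggcctatttgca
Fbxw19: ttccttaatgatAATAAAgatatatttgca
Fbxw14: ttactcaatgatAATAAAggtctatttgca
Fbxw28: ttactcaatgatAATAAAggtctatttcca
Of the 6 genes with the same stretch, *Fbxw16*, *Fbxw18*, *Fbxw25* and *Fbxw27* fell at MII, while *Fbxw22* and *Fbxw24* were not called. In the whole cluster 7 of 15 fell, and of all genes tested 24% did.

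Most of the promoters were alike as well. RefSeq windows of 300 bases on GRCm38.p6 were at hand for 12 of the 15 genes, all but *Fbxw13*, *Fbxw22* and *Fbxw27*. Identity over their 66 pairs had a median of 90.95%, with *Fbxw23* as the exception at 51.1% to 61.8% against the other 11. Those 11 windows span the 5′ end of their M21 gene. That of *Fbxw23* (chr9:109543140-109543439) lies wholly upstream of its M21 gene, which starts at 109534858. Its low identity therefore does not compare matched places. The E-box CANNTG, searched on both strands, occurred in 12 of 12, against 71.1% of 38 promoters of other F-box genes and 72.1% of all 27025 promoters. The letters TATAAA, searched in the same way, were found in 0 of 12, in 0 of the 38 promoters of other F-box genes and in 14.2% of all promoters. Printed here are 3 minus-strand windows, 5′ to 3′, with E-boxes in capitals. They belong to *Fbxw14* (chr9:109287627-109287926), which had values above GV at MII, to *Fbxw24* (chr9:109626010-109626309), the most abundant member, and to its neighbour *Fbxw25* (chr9:109664603-109664902), which fell.
Fbxw14: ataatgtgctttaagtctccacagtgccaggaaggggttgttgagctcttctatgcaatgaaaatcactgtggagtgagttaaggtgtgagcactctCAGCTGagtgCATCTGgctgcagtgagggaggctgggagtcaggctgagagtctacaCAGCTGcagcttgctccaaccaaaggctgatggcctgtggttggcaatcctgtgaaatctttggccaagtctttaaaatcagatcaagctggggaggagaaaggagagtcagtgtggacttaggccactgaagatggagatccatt
Fbxw24: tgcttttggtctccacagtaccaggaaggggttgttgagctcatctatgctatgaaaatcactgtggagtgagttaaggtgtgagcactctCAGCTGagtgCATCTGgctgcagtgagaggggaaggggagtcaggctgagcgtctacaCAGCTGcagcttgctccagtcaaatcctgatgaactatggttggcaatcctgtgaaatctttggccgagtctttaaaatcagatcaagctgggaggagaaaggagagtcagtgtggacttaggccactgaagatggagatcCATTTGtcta
Fbxw25: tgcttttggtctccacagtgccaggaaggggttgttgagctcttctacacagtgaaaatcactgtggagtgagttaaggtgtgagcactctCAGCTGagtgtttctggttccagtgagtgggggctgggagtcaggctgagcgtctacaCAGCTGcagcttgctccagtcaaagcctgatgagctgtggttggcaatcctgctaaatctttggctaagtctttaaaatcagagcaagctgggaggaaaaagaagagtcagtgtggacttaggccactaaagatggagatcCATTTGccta
The windows of *Fbxw24* and *Fbxw25* were 91.3% identical over 300 aligned bases, and those of *Fbxw14* and *Fbxw24* 93.9% over 293. A match of letters describes the sequence only.

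Such likeness limits how finely the members can be told apart by reads. In stretches of 50 bases, a median of 26.6% of a cluster transcript was also present in another annotated transcript, against a median of 0% for the other F-box genes. The share was 94.2% in *Fbxw14* and 93.3% in *Fbxw28*, so the assignment of reads between these paralogs is uncertain. Their sum is given too, without any reads dropped for a mapping quality under 10. It was at most 20% in *Fbxw13*, *Fbxw18*, *Fbxw21* and *Fbxw24*. Exons of *Fbxw15* overlap *Gm42756* over 11.2% of their length, and exons of *Fbxw16* overlap *Gm42494* over 11.7%. Reads there, counted without regard to strand, cannot be assigned to either gene by position.

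As a check of the libraries, all 12 oocyte markers, such as *Zp3* and *Gdf9*, were listed, with a summed level of 42681 to 54093 scaled TPM per library. Of 14 cumulus and granulosa markers 5 were listed in all libraries, and they summed to 33.9 to 45.1. *Cyp19a1* read 15.7 to 26.8 and *Nr5a2* 8.97 to 20.9 over the libraries, and *Inha* reached 9.83 in Btg4tm. *Star* and *Lhcgr* did not exceed 1.21 and 0.307. *Foxl2* and *Amh* were among 6 markers in no table, and 3 were in some tables. *Btg4* itself stood at 2650 and 2794 scaled TPM in GV, 5792 and 6002.5 in MII, 5178 and 5510.4 in Btg4wt and 3725 and 4068 in Btg4tm, and TPM do not separate injected from endogenous RNA. Mitochondrially encoded genes held 0.626% to 0.652% of the listed TPM in GV, 2.6% to 2.71% in MII, 1.75% to 2.05% in Btg4wt and 0.765% to 1.02% in Btg4tm. They enter the results only as an alternative scaling.

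The cluster was highly abundant. In GV oocytes its 15 RNAs took 4.33% and 4.05% of the TPM of all listed genes, and the other 52 F-box RNAs together took 0.192% and 0.189%. The share of the cluster was 2.57% and 2.83% in MII, 3.53% and 3.33% in Btg4wt and 4.58% and 4.08% in Btg4tm. Values of both MII libraries lay below those of every other library, whereas GV and Btg4tm libraries overlapped. The other F-box RNAs stayed between 0.169% and 0.211% in all 8 libraries. In scaled TPM, which are TPM divided by a median-of-ratios factor, the cluster summed to 38467 ± 2981 (SD, n = 2) in GV, 27714 ± 1986 in MII, 34918 ± 844 in Btg4wt and 44505 ± 2267 in Btg4tm.

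**Figure D1:**
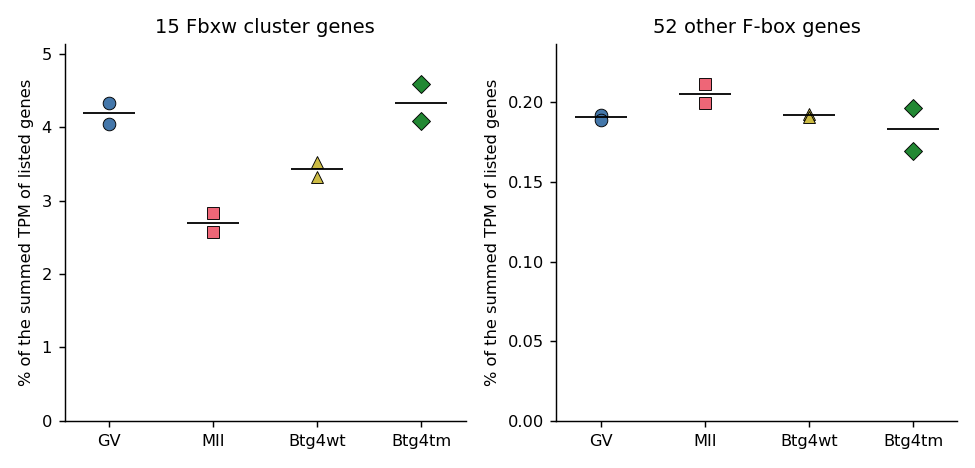
Share of the summed TPM of listed genes, in percent, held by the 15 Fbxw cluster genes (left) and by the 52 other F-box genes (right). Each point is a library, each line the mean of 2 libraries; the axes start at 0 and differ in scale. The MII libraries, at 2.57% and 2.83%, are the lowest for the cluster.

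Within the cluster the level differed by more than an order of magnitude. *Fbxw24* was the highest, with rank 6 of all listed genes in GV, and in that group the mean of *Fbxw24* was 15.8 times that of *Fbxw13*. In GV 10 of the 15 were within the first 100 genes and all 15 within the first 500. The lowest, *Fbxw23*, had a GV mean of 335 scaled TPM, above *Fbxl6*, the highest other F-box RNA, at 321. At MII 6 were within the first 100 and 13 within the first 500, and *Fbxw13* had dropped below 8 of the other F-box genes. The ratio of *Fbxw24* to *Fbxw13* was 101 in MII, 116 in Btg4wt and 20.7 in Btg4tm.

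**Figure D2:**
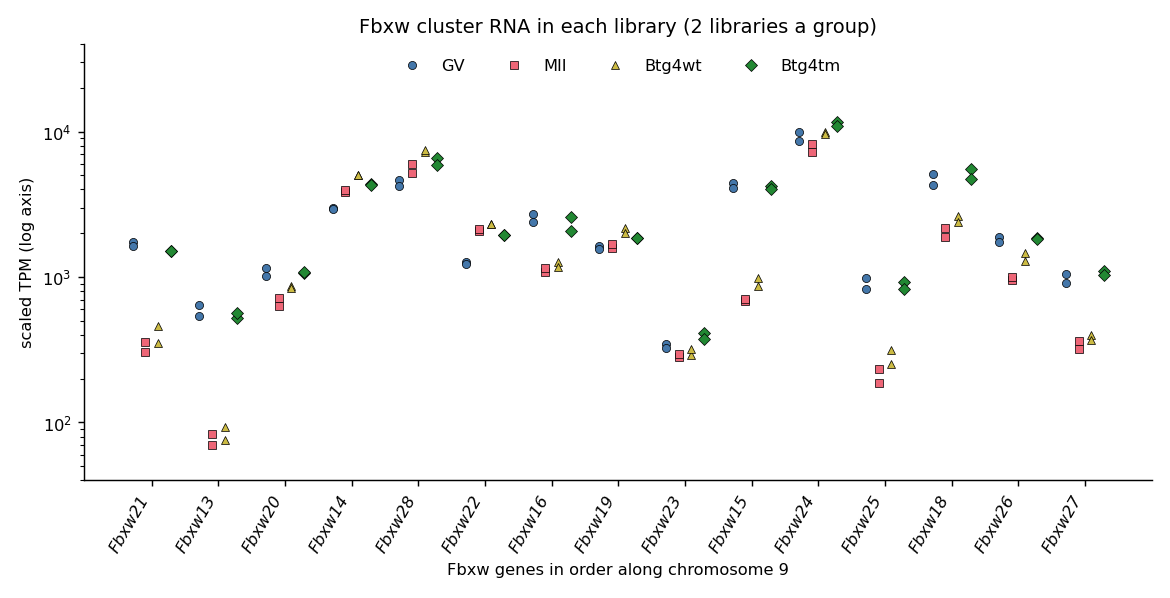
Scaled TPM (log axis) of the 15 Fbxw cluster genes in each of the 8 libraries, in their order along chromosome 9; each symbol is a library of GV, MII, Btg4wt or Btg4tm oocytes. *Fbxw24* lies between 7219 and 11592 in all libraries, whereas *Fbxw13* lies at 536 and 645 in GV and at 69.5 and 83.4 in MII.

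The comparison of MII with GV asks which of these RNAs are lost in maturation. In it, 7 of the 15 cluster genes fell and 0 rose. The median log2 fold change was -0.89 for the cluster and -0.0017 for all genes tested, of which 24% were called lower, 12.5% higher and 36.5% either way. Both MII libraries lay below both GV libraries in 11 of the 15 genes and above them in 3, where 41.6% and 41.1% of all genes did so. *Fbxw13* showed the steepest change of the cluster, from 645 and 536 scaled TPM in GV to 69.5 and 83.4 in MII, a log2 fold change of -2.93 ± 0.15 (SE, adjusted p = 1.75e-06). *Fbxw15* went from 4457 and 4108 to 679.8 and 706 (-2.63 ± 0.10, adjusted p = 7.21e-07), so a transcript with rank 19 in GV stood at rank 193 in MII. In each case both MII libraries were far below both GV libraries.

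*Fbxw21* fell from 1735 and 1621 to 307 and 355, a log2 fold change of -2.34. *Fbxw25* fell from 988 and 823 to 187 and 233, by 2.11 on the log2 scale. *Fbxw27* fell from 1057 and 905 to 321 and 364, by 1.51. In *Fbxw18* and *Fbxw16* the change was smaller, close to the limit of 1. *Fbxw18* read 5079 and 4278 in GV and 1896 and 2184 in MII (-1.20 ± 0.14). *Fbxw16* read 2704 and 2396 in GV and 1084 and 1151 in MII (-1.19 ± 0.13, adjusted p = 9.23e-05). All 7 remained called under each of the 19 alternative settings tried. In MII oocytes they kept between 12.9% and 43.8% of their GV level.

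The remaining 8 cluster genes were not called, and they did not form a uniform group. *Fbxw26* (1885 and 1753 in GV, 956 and 1003 in MII) and *Fbxw20* (1161 and 1010.5 in GV, 633 and 713 in MII) had log2 fold changes of -0.89 and -0.69 with adjusted p of 0.000117 and 0.00061, below the required size. For *Fbxw26* this depended on the scaling, since it was called with TPM as deposited (-1.05), quantile normalization (-1.12) and mitochondrial scaling (-3.11). With the last, all 15 cluster genes were called lower, as were 11403 of all 13968 genes tested. *Fbxw24* read 9987 and 8621 in GV and 7219 and 8264 in MII (-0.26 ± 0.12, adjusted p = 0.09). For *Fbxw23* the values were 348 and 323 against 281 and 295 (-0.22 ± 0.10). *Fbxw19* could not be separated between the stages, since its GV values of 1635 and 1560 and its MII values of 1588 and 1697 overlapped.

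A further 3 members had higher values at MII without passing the fold limit. *Fbxw22* read 1266 and 1224 in GV and 2065 and 2126 in MII, a log2 fold change of 0.75 ± 0.09 with an adjusted p of 0.000121. *Fbxw14* read 2977 and 2948 in GV and 3829.6 and 3950 in MII (0.39 ± 0.09), and *Fbxw28* read 4651 and 4255 in GV and 5195 and 5996 in MII (0.33 ± 0.12). The sum of *Fbxw14* and *Fbxw28* was 7628.5 and 7203 in GV and 9024 and 9946 in MII. It does not restore reads of either gene that were dropped for low mapping quality. These genes are neighbours on the chromosome, and their coding sequences are 91.4% to 97.4% identical. Their direction depended on the scaling, since with scaling to the mitochondrially encoded genes the log2 fold changes became -1.47 for *Fbxw22*, -1.83 for *Fbxw14* and -1.89 for *Fbxw28*.

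Ratios between members of a library do not depend on any scaling, and they changed as well. The ratio of *Fbxw15* to *Fbxw24* was 0.446 and 0.477 in GV and 0.0942 and 0.0854 in MII. That of *Fbxw21* to *Fbxw19* was 1.06 and 1.04 in GV and 0.193 and 0.209 in MII. By contrast, *Fbxw28* to *Fbxw14* gave 1.56 and 1.44 in GV and 1.36 and 1.52 in MII, with overlapping groups. Levels of these members thus changed unequally whatever the scaling.

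**Figure D3:**
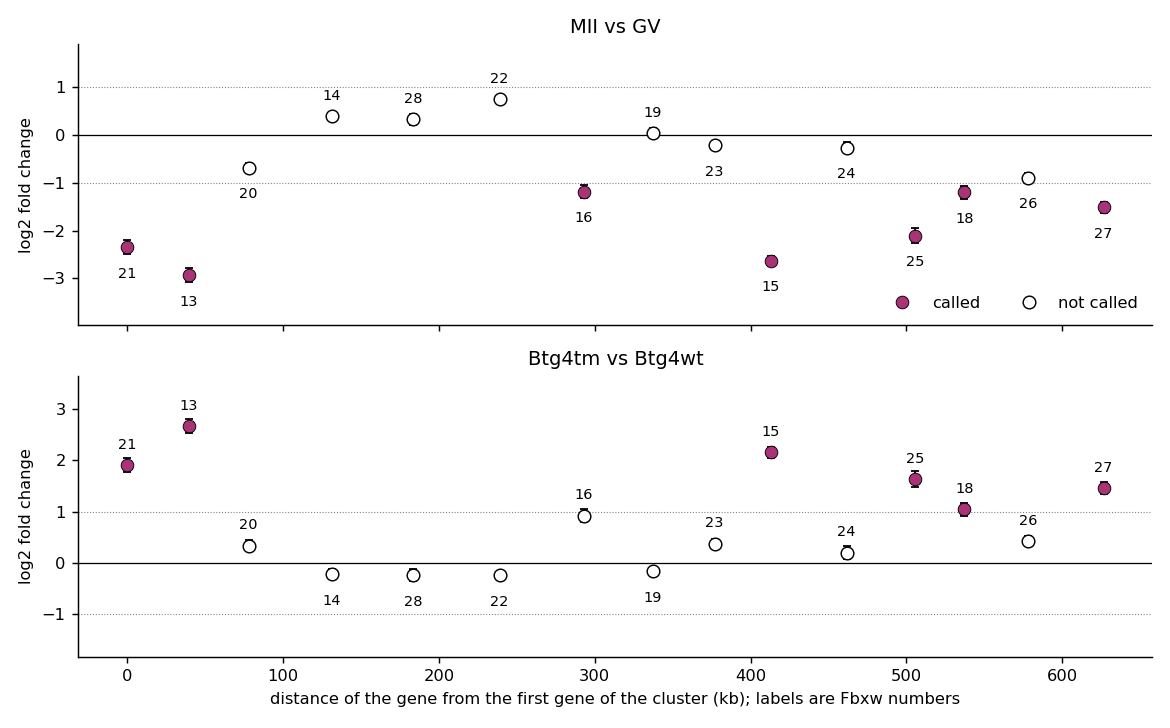
Log2 fold change of each cluster gene against its distance in kb from the first gene, for MII vs GV (top) and Btg4tm vs Btg4wt (bottom). Numbers are Fbxw names, bars are standard errors, filled points are called genes and dotted lines mark 1 and -1; the neighbours *Fbxw24* and *Fbxw25* differ at -0.26 and -2.11 in the upper panel. Directions are for median-of-ratios scaling, and *Fbxw14*, *Fbxw19*, *Fbxw22* and *Fbxw28* turn to negative values in the upper panel with scaling to the mitochondrially encoded genes.

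Position along the chromosome did not sort the called from the uncalled genes. *Fbxw15* and *Fbxw25* flank *Fbxw24* and fell, while *Fbxw24* was not called. Over the 14 pairs of neighbours the median absolute difference in log2 fold change was 0.996, and over all 105 pairs it was 1.23. Across the 91 pairs of coding genes, higher identity of coding sequence went with a smaller difference (Spearman rho -0.41 for MII vs GV and -0.45 for Btg4tm vs Btg4wt). These correlations are descriptions, since pairs share genes and near-identical genes share reads. Across the 15 genes, the fold change at MII had a Spearman rho of 0.188 with transcript length and of -0.291 with GC content.

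The injected oocytes allowed the same RNAs to be compared between mutant and wild-type BTG4, with group means from other libraries than in the first comparison. The fit used all 8 libraries, so both comparisons share the estimate of spread. In Btg4tm relative to Btg4wt, 6 of the 15 cluster genes rose and 0 fell, beside 18.1% of all genes called higher, 7.94% called lower and 26.1% either way. Both Btg4tm libraries lay above both Btg4wt libraries in 11 of the 15 and below them in 4, against 37.6% and 36.7% of all genes. The median of the cluster was 0.42 and that of all genes 0.0077. *Fbxw13* read 92.8 and 76.0 in Btg4wt and 520.0 and 563 in Btg4tm, a log2 fold change of 2.67 ± 0.15 (adjusted p = 4.69e-06). *Fbxw15* read 985 and 862 in Btg4wt and 4221 and 4004 in Btg4tm (2.16 ± 0.10, adjusted p = 2.56e-06). For each, the Btg4wt libraries stood near the MII libraries and the Btg4tm libraries near the GV libraries.

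*Fbxw21* rose from 461 and 353 to 1518 and 1512 (1.91 ± 0.14), and *Fbxw25* from 313 and 254 to 931 and 822 (1.63 ± 0.16). *Fbxw27* rose from 402 and 369 to 1096 and 1029 (1.46 ± 0.11). *Fbxw18* rose from 2621 and 2381 to 5569 and 4749.5 (1.04 ± 0.14, adjusted p = 0.000368). The call of *Fbxw18* rests on its size: without Btg4wt replicate 2 the log2 fold change was 0.97 and without Btg4tm replicate 1 it was 0.92. *Fbxw16*, which fell at MII, read 1270.2 and 1169 in Btg4wt and 2588 and 2057 in Btg4tm, a log2 fold change of 0.92 ± 0.13 (adjusted p = 0.000587) that stayed under the limit. It was called with quantile normalization (1.01), mitochondrial scaling (2.01) and without Btg4tm replicate 2 (1.08). All 6 genes that rose had fallen at MII, as had 92.5% of all genes that rose in Btg4tm.

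The cluster genes that had not fallen at MII showed smaller differences in the injected oocytes. *Fbxw26* had a log2 fold change of 0.42, from 1473 and 1286 to 1867 and 1821. *Fbxw23* had 0.37, *Fbxw20* 0.34 and *Fbxw24* 0.20, the last with 9890 and 9659.8 in Btg4wt and 11592 and 10848 in Btg4tm. *Fbxw14*, *Fbxw19*, *Fbxw22* and *Fbxw28* lay between -0.25 and -0.17, with positive values such as 0.84 for *Fbxw22* under scaling to the mitochondrially encoded genes. The sum of *Fbxw14* and *Fbxw28* was 12342 and 12444 in Btg4wt and 10905 and 10229 in Btg4tm. The ratio of *Fbxw15* to *Fbxw24*, free of scaling, was 0.0996 and 0.0893 in Btg4wt and 0.364 and 0.369 in Btg4tm.

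**Figure D4:**
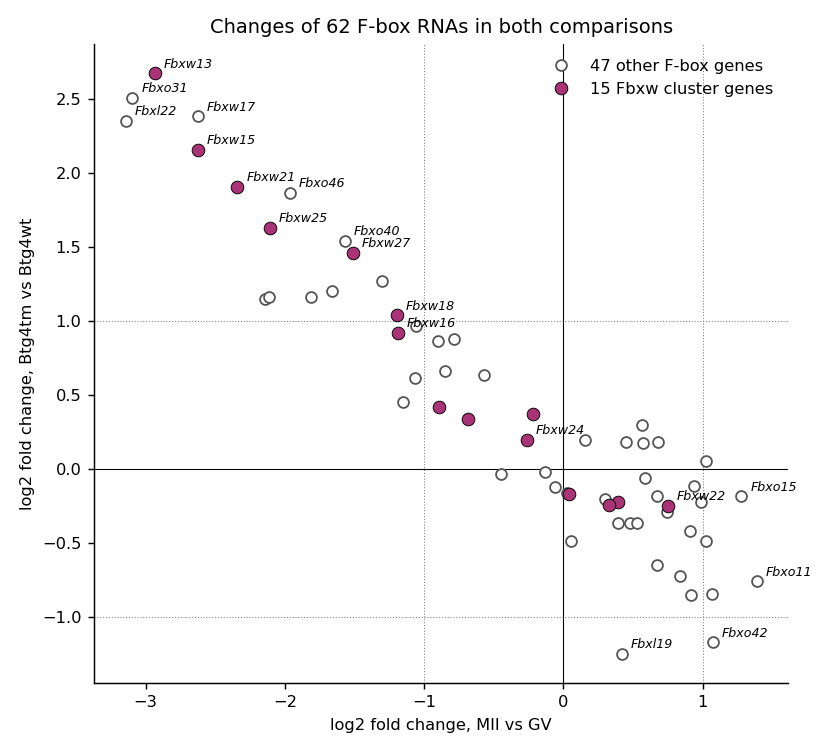
Log2 fold change in MII vs GV (horizontal) against that in Btg4tm vs Btg4wt (vertical) for 62 tested F-box genes, which come from separate libraries. Filled points are the 15 cluster genes, open points 47 others, and dotted lines mark 1 and -1; *Fbxw13* is at -2.93 and 2.67, *Fbxw22* at 0.75 and -0.25. Values are for median-of-ratios scaling, and those to the right of 0 shift to the left with scaling to the mitochondrially encoded genes.

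The comparisons of injected with uninjected oocytes share libraries with those above and cross the 2 sets of tables. In Btg4tm vs GV, 0 of the 15 cluster genes were called by limma, beside 1.02% of all genes called higher, 1.02% called lower and 2.04% either way, and 5 of the 15 had an unadjusted p under 0.05, as did 29.7% of all genes. The libraries did not overlap in 6 genes that were higher and 1 that was lower, against 25.3% and 34.2% of all genes. The 7 members that had fallen at MII stood at 90.3% to 110% of their GV level in Btg4tm, with log2 fold changes from -0.15 to 0.14 and standard errors of at most 0.16. Their level in Btg4wt was 14.3% to 53.5% of GV. *Fbxw22* showed the largest difference of the cluster from GV, with 1956 and 1939.8 in Btg4tm (0.65 ± 0.09, adjusted p = 0.00559).

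In Btg4wt vs MII, 0 of the 15 were called by limma, and 0% of the 13968 genes were. At an unadjusted p under 0.05 there were 1655 genes (11.8%), 8 of them in the cluster. The log2 fold changes of the cluster all had the same sign, from 0.09 in *Fbxw23* to 0.49 in *Fbxw26*, and the lowest adjusted p was 0.194. In 12 of the 15 both Btg4wt libraries were above both MII libraries, and in 0 both were below, while 24.1% and 20.8% of all genes showed such a lack of overlap. Of the other 48 F-box genes, 5 were above and 16 below in this sense. The sets differ in injection and in table set, and these cannot be told apart here.

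The 52 F-box genes outside the cluster were much less abundant, with a median of 14.2 scaled TPM in GV against 1678 for the cluster. *Fbxl6* and *Fbxo34*, the latter known for a role in meiotic resumption of oocytes, were the highest. *Fbxl6* read 306 and 336 in GV, 373 and 340.5 in MII, 274 and 347 in Btg4wt and 375 and 333 in Btg4tm, without a called change. *Fbxo34* read 258 and 272 in GV, 432 and 415 in MII, 434 and 354 in Btg4wt and 271 and 230.5 in Btg4tm (0.68 and -0.65 in the comparisons MII vs GV and Btg4tm vs Btg4wt, adjusted p of 0.00182 and 0.00319, under the fold limit). In *Fbxo34*, 47.1% of the transcript is shared with other annotated transcripts. *Fbxo8*, *Fbxo30*, a ligase subunit for the kinesin Eg5, and *Fbxo28* followed, between 99.5 and 189 in every library. None of these 5 most abundant genes was called in MII vs GV or in Btg4tm vs Btg4wt.

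At MII, 13 of the 48 fell and 6 rose, near the 24% and 12.5% of all genes, and the median log2 fold change was 0.34. By family, 6 of 17 *Fbxl*, 5 of 23 *Fbxo* and 2 of 8 *Fbxw* genes fell. The steepest falls, leaving out genes whose mean was under 5 scaled TPM, were those of *Fbxl22*, a protein of the muscle Z-disc, *Fbxo31*, a receptor for cyclin D1, and *Fbxw17*, which lies outside the cluster on chromosome 13. *Fbxo31* read 16 and 22.5 in GV and 1.70 and 1.03 in MII (-3.09 ± 0.25, adjusted p = 1.93e-05). *Fbxw17* read 25.4 and 20.8 in GV and 3.47 and 2.39 in MII (-2.63 ± 0.27, adjusted p = 5.9e-05). *Fbxl22* read 15.8 and 13.4 in GV and 1.16 and 0.428 in MII (-3.14 ± 0.28). Levels near 1 TPM rest on few reads, and depth is unknown.

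Falls of 1 to 2 on the log2 scale were seen in 8 further genes. *Fbxo46* went from 23.4 and 16.9 to 4.57 and 4.17 (-1.96), *Fbxl2* from 27.2 and 25.9 to 7 and 8.45 (-1.66) and *Fbxo40* from 38.2 and 37.1 to 13.0 and 11.1 (-1.57). *Fbxl14*, which targets the transcription factor Snail, went from 6.72 and 6.82 to 1.27 and 1.17 (-1.81). *Fbxl13*, *Fbxl15*, *Fbxo47* and *Fbxw8*, the partner of CUL7, had log2 fold changes of -1.30, -1.15, -1.06 and -1.06. *Fbxo17* (-2.14) and *Fbxl8* (-2.12) changed more, from 14.4 and 11.5 to 1.63 and 2.77 and from 8.22 and 5.84 to 0.429 and 1.34. Exons of *Fbxw8* and *Fbxl15* overlap another gene over 33.4% and 25.6% of their length. The call of *Fbxl15* was lost without GV replicate 2 (-0.95) and without MII replicate 1 (-0.77).

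The 6 genes that rose at MII were all *Fbxo* genes, and with scaling to the mitochondrially encoded genes all 6 had negative values, from -1.13 in *Fbxo9* to -0.78 in *Fbxo15*. *Fbxo11*, a receptor for BCL6, read 51.0 and 42.8 in GV and 134 and 115 in MII (1.39 ± 0.13, adjusted p = 3.72e-05). *Fbxo15*, an OCT4 target in pluripotent cells, read 8.28 and 8 in GV and 21.1 and 21.3 in MII (1.28 ± 0.13, adjusted p = 6.23e-05). *Fbxo42*, *Fbxo10*, *Fbxo33* and *Fbxo9* had 1.07, 1.07, 1.02 and 1.02. Calls of *Fbxo10* (0.83) and *Fbxo42* (0.97) were lost without GV replicate 1, that of *Fbxo10* (0.91) also without MII replicate 1, and that of *Fbxo33* (0.73) without GV replicate 2. With TPM as deposited, *Fbxo10* (0.93), *Fbxo42* (0.92) and *Fbxo33* (0.87) were not called.

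Several receptors with well-known substrates did not reach the limit, some of them narrowly. *Fbxw7*, which directs the destruction of cyclin E and MYC, read 2.97 and 2.29 in GV and 6.08 and 5.53 in MII (0.91 ± 0.23). *Fbxw11*, the β-TrCP paralog, read 21.2 and 27.0 in GV and 45.3 and 46.7 in MII (0.92 ± 0.17, adjusted p = 0.00158). *Fbxl5*, the iron-regulated receptor of IRP2, read 49.4 and 37.8 in GV and 84.4 and 83.3 in MII (0.94 ± 0.15). *Fbxo7* read 33.7 and 31.4 in GV and 19.9 and 15.6 in MII (-0.85 ± 0.15). *Fbxo38* (-0.06), *Fbxl12* (0.05), *Fbxw2* (0.52), *Fbxw4* (0.39), *Fbxw5* (0.75), *Fbxl20* (0.68) and *Fbxo45* (0.57), the partner of MYCBP2, were not called either. In *Fbxl12* and *Fbxw4*, 37.1% and 21.4% of the exon length overlaps another gene. Without GV replicate 1, *Fbxw7* (1.04) and *Fbxl5* (1.13) were called, as were *Fbxw11* (1.09) without GV replicate 2 and *Fbxo7* (-1.01) without MII replicate 1. With quantile normalization *Fbxw7*, *Fbxw11*, *Fbxl5* and *Fbxw5* were called, at 1.02 to 1.26, and with mitochondrial scaling all 4 had negative values. *Fbxo7* was also called with TPM as deposited and with mitochondrial scaling (-2.96). A further 11 tested members, *Fbxo21*, *Fbxl7*, *Fbxl17*, *Fbxl4*, *Fbxo25*, *Fbxo22*, *Fbxo3*, *Fbxl21*, *Fbxl18*, *Fbxw9* and *Fbxo36*, ran from -0.90 in *Fbxo36* to 0.99 in *Fbxo21*, all within the limit.

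**Figure D5:**
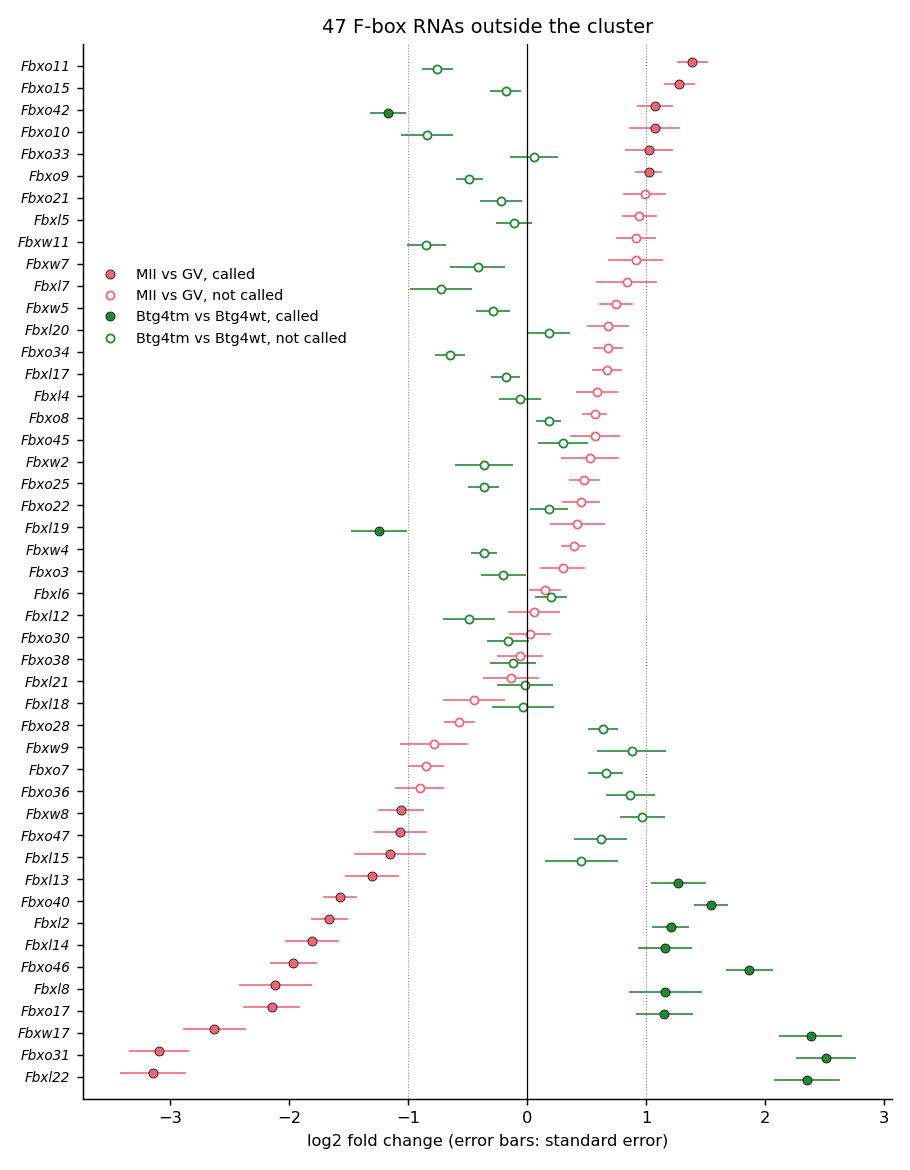
Log2 fold changes with standard errors of 47 tested F-box genes outside the cluster, sorted by MII vs GV, with Btg4tm vs Btg4wt beside them. Filled points are called genes and dotted lines mark 1 and -1; *Fbxl22* is at -3.14 and 2.35, *Fbxo11* at 1.39 and -0.76. With scaling to the mitochondrially encoded genes the positive values of MII vs GV turn negative for *Fbxo11* (-0.80).

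In Btg4tm relative to Btg4wt, 10 of the 48 rose and 2 fell, with a median of -0.0049, where 18.1% and 7.94% of all genes did so. All 10 that rose had fallen at MII, as had 92.5% of all genes that rose in Btg4tm. *Fbxo31* read 1.49 and 1.13 in Btg4wt and 13.8 and 10.5 in Btg4tm (2.51 ± 0.25, adjusted p = 9.53e-05). *Fbxw17* read 2.29 and 2.56 in Btg4wt and 21.9 and 12.9 in Btg4tm (2.38 ± 0.27). *Fbxl22*, *Fbxo46* and *Fbxo40* had 2.35, 1.87 and 1.54, the last from 8.34 and 8.76 to 28.4 and 25.3. *Fbxl13*, *Fbxl2*, *Fbxl14*, *Fbxl8* and *Fbxo17* had between 1.15 and 1.27, and without Btg4wt replicate 1 *Fbxl14* was at 0.90 and no longer called. With quantile normalization *Fbxl14* (0.97) and *Fbxo17* (0.92) were not called. The genes that fell were *Fbxl19*, whose protein has a CXXC zinc finger that binds CpG islands, and *Fbxo42*, and with scaling to the mitochondrially encoded genes neither was called, at -0.29 and -0.14.

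*Fbxl19* read 13.3 and 12.9 in Btg4wt and 3.83 and 6.31 in Btg4tm (-1.25 ± 0.23, adjusted p = 0.00254), and -0.95, no longer called, without Btg4tm replicate 1. *Fbxo42* read 27.1 and 27.9 in Btg4wt and 10.8 and 12.7 in Btg4tm (-1.17 ± 0.15). The 3 genes *Fbxl15*, *Fbxo47* and *Fbxw8*, which fell at MII, had 0.46, 0.62 and 0.97 here and were not called. Taking cluster and other genes together, 20 of 63 fell at MII, of which 16 (80%) rose in Btg4tm, and these 16 are 100% of those that rose. Over all genes tested, 2345 did both, which is 70% of the 3351 that fell at MII and 92.5% of the 2534 that rose in Btg4tm. The 4 others were *Fbxl15*, *Fbxo47*, *Fbxw8* and *Fbxw16*. In all 20 both Btg4tm libraries were above both Btg4wt libraries, as they were in 93.1% of all genes that fell at MII.

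Among genes that had fallen at MII, those outside the cluster stood lower against GV in Btg4tm than those of the cluster. This difference was not tested, and both sets were chosen with the same GV libraries. Over all 48 genes the median log2 fold change was 0.017, beside 0.119 for the cluster. With quantile normalization these were 0.0702 and -0.178. The 13 that had fallen at MII were at 31.7% to 130% of their GV level in Btg4tm, with a median of 63.2%, where the median of the 7 cluster genes was 96.0%. Of the 48, *Fbxo15* was called higher in Btg4tm than in GV, with 18.9 and 17.9 against 8.28 and 8 (1.08 ± 0.13, adjusted p = 0.00513), a call lost with TPM as deposited (0.94) and with mitochondrial scaling (0.52), and 0 were called lower. *Fbxl15* (-1.10, adjusted p = 0.0535) and *Fbxl8* (-1.05, adjusted p = 0.0634) came nearest among the lower ones. In Btg4wt vs MII the 48 ranged from -0.69 in *Fbxo45* to 0.48 in *Fbxo46*, with a lowest adjusted p of 0.29. The 4 untested genes *Fbxo4*, *Fbxo16*, *Fbxo32* and *Fbxo48* did not exceed 0.812 scaled TPM in any library.

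F-box proteins whose symbols follow another scheme gave a mixed picture. Of 5 such genes, 1 rose and 2 fell at MII, where 12.5% and 24% of all genes did. In Btg4tm vs Btg4wt 1 rose and 1 fell, beside 18.1% and 7.94% of all genes. With 5 genes such counts cannot be told from these shares. *Btrc*, which encodes β-TrCP, read 59.7 and 65.7 in GV, 12.9 and 10.9 in MII, 12.9 and 10.4 in Btg4wt and 60.7 and 47.6 in Btg4tm (-2.31 and 2.12). *Skp2* rose at MII (1.15, but -0.71 with scaling to the mitochondrially encoded genes), *Ccnf* fell (-1.06), and *Kdm2b* fell in Btg4tm from 45.3 and 40.9 to 13.4 and 12.8 (-1.64, and -0.60 with that scaling).

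Genes of the SKP1-CUL1 ligase core were measured as well. *Skp1a*, the adaptor bound by the F-box, stood between 2330 and 7823 scaled TPM in every library and was not called. *Cul1* rose from 589 and 535 in GV to 1219.8 and 1207 in MII (1.11 ± 0.10, and -1.10 with that scaling) and was at 1222 and 1109 in Btg4wt and at 802 and 789.6 in Btg4tm. *Rbx1* was not called, at 0.52 and -0.21. Of 30 listed genes of the SCF core and the neddylation cycle, which switches cullins on and off, 4 rose and 10 fell at MII, while 9 rose and 0 fell in Btg4tm. Of all genes, 12.5% and 24% did so at MII and 18.1% and 7.94% in Btg4tm. Among these are 9 subunits of the COP9 signalosome, which removes NEDD8 from cullins, a count made after the values were seen. At MII 6 of the 9 fell, and in Btg4tm 5 rose, where 24% and 18.1% of all genes did. *Cops6* read 226 and 242 in GV, 8.81 and 10.1 in MII, 13.2 and 9.93 in Btg4wt and 195 and 213 in Btg4tm (-4.49 and 4.03).

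Scaling to the mitochondrially encoded genes moved the medians of each comparison in the same direction, by unequal amounts. Quantile normalization moved those of MII vs GV apart, to -1.12 for the cluster and 0.55 for the other F-box genes. With mitochondrial scaling the median of all genes became -1.74 in MII vs GV. The cluster median relative to it was -1.37, against -0.89 as reported, and that of the other F-box genes was 0.0442, against 0.346. In Btg4tm vs Btg4wt the median of all genes became 0.875, and the cluster stood 0.634 above it, against 0.415 as reported. Libraries were primed with oligo(dT), so a shorter poly(A) tail and fewer RNA molecules cannot be told apart in any of these values. Each library pools 15 oocytes, so a change in every oocyte and a larger change in some of them cannot be told apart either.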

How the data were processed

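The authors trimmed reads with Trim Galore 0.6.10, aligned them to GRCm38 with HISAT2 2.2.0 and counted exon reads of GENCODE M25 genes with featureCounts 2.0.6, without regard to strand and dropping mapping qualities under 10. TPM per gene were deposited for each library; counts and depth are unknown here. Libraries were Smart-seq2, primed with oligo(dT).

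For this report, genes were joined by symbol over the 8 tables. TPM were divided by median-of-ratios size factors (0.948 to 1.11) and tested as log2(scaled TPM + 1) with limma 3.58.1 in R 4.3.3, with 1 coefficient per group, a trended eBayes prior and Benjamini-Hochberg adjustment over the 13968 genes that reached 1 TPM in 2 or more of the 8 libraries. Fold changes are on this scale, which understates low genes. DESeq2, which the methods name, needs counts and was not used here. The fit was tested on simulated data. Members and gene lists were chosen with earlier results of these data known. Named are all cluster genes, the 5 most abundant others, the 5 largest rises and falls with a mean of at least 5, genes called in the remaining comparisons, and a list of genes with known roles; other members appear where all are accounted for. Positions and transcripts came from GENCODE M21, in which all 67 symbols matched, and promoters from RefSeq, which had 50 of the 67. Replicate numbers were not used to pair the libraries. Of the tested members, 1 is counted in the totals but not reported here by itself or drawn.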

Additional observations from a re-analysis of the deposited data

How the results depend on the processing

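Calls of the 7 cluster genes that fell at MII held under all 19 settings. Of 308 values over the whole lists, 262 stayed within the replicate spread or within 1.5 times the count. Of 3464 single-gene values 3335 were counted as the same, 22 as weaker, 87 as stronger and 20 as reversed. Values counted as the same can still differ in sign. *Fbxw14* in Btg4tm vs Btg4wt ran from -0.24 to 0.87 over the settings and was counted as the same in all 19. The cause of the shifts below was not tested beyond the construction of each setting.

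In MII vs GV, genes called higher numbered 2 with TPM as deposited, 12 with quantile normalization, 0 with scaling to the mitochondrially encoded genes and 25 with no minimum fold, against 6; genes called lower numbered 57 with mitochondrial scaling, against 20. Of all 13968 genes tested, 1145, 3102, 7 and 4168 were called higher under the same settings in that order, against 1752. With mitochondrial scaling 11403 of all genes were called lower, against 3351. The cluster median became -1.05 with TPM as deposited, -1.12 with quantile normalization and -3.11 with mitochondrial scaling. It was -1.77 over the 4 members with at most 20% shared sequence. The median of the other genes became 0.19, 0.55 and -1.70 (a change of direction) under these 3 scalings, or 0.23 with no filter. In Btg4tm vs Btg4wt, genes called lower numbered 5 with quantile normalization, 0 with mitochondrial scaling and 11 with no minimum fold, and 1 to 3 with a library left out (1 without Btg4tm replicate 1), against 2; genes called higher numbered 32 with mitochondrial scaling and 26 with no minimum fold, against 16. Of all 13968 genes, 1778, 69 and 3251 were called lower with quantile normalization, mitochondrial scaling and no minimum fold, against 1109. Called higher were 6089 of all genes with mitochondrial scaling and 3666 with no minimum fold, against 2534. The cluster median was 1.51 with mitochondrial scaling and 1.47 over the members with little shared sequence. That of the other genes was 0.95 with mitochondrial scaling, or -0.18 with quantile normalization. In Btg4wt vs MII mitochondrial scaling gave medians of 0.84 for the cluster and 0.28 for the others.

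In Btg4tm vs GV, genes called higher numbered 0 with TPM as deposited and with mitochondrial scaling, 9 with no minimum fold and 1 to 2 with a library left out, against 1 (2 without GV replicate 1); genes called lower numbered 2 with TPM as deposited, 13 with mitochondrial scaling and 0 to 1 with a library left out (1 without either MII library), against 0. Of all 13968 genes, 80, 38 and 1070 were called higher with TPM as deposited, mitochondrial scaling and no minimum fold, against 143. Called lower were 287 of all genes with TPM as deposited and 2972 with mitochondrial scaling, against 142. The cluster median turned to -0.044 with TPM as deposited, -0.18 with quantile normalization and -0.51 with mitochondrial scaling. It was 0.0099 to 0.24 with a library left out. The other genes had -0.13, 0.07 and -0.54 under the same scalings, in that order. The summed cluster level in GV was 41683 as deposited and 84960 with mitochondrial scaling, which gave 13171 in MII, 23416 in Btg4wt and 64617 in Btg4tm, and in Btg4wt it was 34582 to 35878 with a Btg4wt library left out.

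The replicate number as a block gave 1 gene called lower in Btg4tm vs GV, against 0, and otherwise changed no count by over 1.5 times. Deviations of same-numbered libraries correlated at -0.0157 (GV and MII) and 0.0555 (Btg4wt and Btg4tm). With so few libraries this cannot tell whether same-numbered libraries were prepared together.

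With mitochondrial scaling these genes, among others, turned negative in MII vs GV: *Fbxw14* -1.82, *Fbxw19* -2.18, *Fbxw22* -1.47, *Fbxw28* -1.89, *Fbxw11* -1.24, *Fbxw4* -1.80, *Fbxw5* -1.36, *Fbxo11* -0.80, *Fbxo9* -1.13, *Fbxo15* -0.78, *Fbxo30* -2.18, *Fbxo34* -1.54, *Fbxl20* -1.45, *Fbxl5* -1.24, *Fbxl12* -1.72, *Fbxl6* -2.06, *Fbxo8* -1.63, *Fbxo33* -1.07, *Fbxo10* -0.91, *Fbxo42* -1.03 and *Fbxl19* -1.55. A library left alone in its group was assumed to vary like the others. Depth is unknown, so values near 1 TPM have no counting interval.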

Other observations

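F-box genes listed in the tables of some libraries only had low values in TPM as deposited. *Fbxw10*, in the uninjected set alone, stood at 0.812 and 0.983 in GV and was listed at 0 in MII replicate 1 and at 0.0756 in MII replicate 2. *Fbxo27*, *Fbxo39* and *Fbxo41*, in the injected set alone, did not exceed 0.896 in any library, the value of *Fbxo39* in Btg4tm replicate 2.

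Other parts of the SCF machinery also differed. *Nedd8*, the modifier that activates cullins, read 293 and 274 scaled TPM in GV, 136 and 139.8 in MII, 143 and 129 in Btg4wt and 278 and 343 in Btg4tm, with log2 fold changes of -1.03 ± 0.12 in MII vs GV and 1.18 ± 0.12 in Btg4tm vs Btg4wt (limma, adjusted p of 0.000135 and 0.000104).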
